A study of Homo sapiens with 7 samples.

Results

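miR-224 and miR-452 are microRNAs (miRNAs) cut from an intron of GABRE, the gene of the epsilon subunit of the GABA-A receptor, on the X chromosome. Their 4 mature arms, hsa-miR-224-5p, hsa-miR-224-3p, hsa-miR-452-5p and hsa-miR-452-3p, were chosen by name from the 2652 mature miRNAs counted in each library, and all 4 passed the filter of a mean count of at least 10 that left 458 miRNAs to test. The small RNA of HepG2, an established line of human hepatocellular carcinoma cells, was sequenced. The 6 treated libraries came from cells given siRNA 1 or siRNA 2 against TEAD1 for 24, 36 or 48 h, with 1 library per siRNA and time, and are labelled as TEAD1 knockdown. They were set against 1 library of untreated cells (0 h), labelled as wild type. TEAD1 mRNA is not measured by small RNA libraries, so the depth of the knockdown was not checked. No library of cells given a control siRNA was among the samples, so knockdown of TEAD1, transfection and time in culture cannot be told apart. The labels do not say whether each library had its own culture. The spread behind the p-values came from the 6 siRNA-treated libraries alone, 1 per siRNA at each time. The variation of untreated cells was not measured, and some or all of the spread can be technical.

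A miRNA hairpin is cut from a longer transcript by Drosha and then by Dicer, and 1 of its arms usually enters an Argonaute protein while the other is degraded. The arm that is kept pairs with target mRNAs mainly through its seed, bases 2 to 8. miR-224 is known for its raised level in hepatocellular carcinoma, and miR-452 lies in the same intron and has been studied in the same tumours. TEAD1 is a DNA-binding factor of the Hippo pathway that acts with the coactivators YAP and TAZ. The series asked which miRNAs depend on it.

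The mature sequences are shown because the arms are told apart by sequence alone and each carries its own seed. They are those of RefSeq (GRCh38.p14, minus strand of chromosome X), 5′ to 3′, with the seed in capitals.
hsa-miR-224-5p: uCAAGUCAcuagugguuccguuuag
hsa-miR-224-3p: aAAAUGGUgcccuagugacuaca
hsa-miR-452-5p: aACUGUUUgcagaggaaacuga
hsa-miR-452-3p: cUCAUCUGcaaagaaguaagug
The 4 seeds differ from each other, and the arms are 25, 23, 22 and 22 bases long. No other miRNA in the files had the same mature sequence as any of them, so their reads had no identical entry to be shared with. miR-224-5p and miR-452-3p shared their seed with no other miRNA of the files. miR-224-3p shared its seed with miR-522-3p, which had 233 reads over the 7 libraries. miR-452-5p shared its seed with miR-4676-3p, at 16 reads in all, and miR-892c-3p, at 2 reads in all.

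The hairpins are shown with both mature arms in capitals, so that the place of each arm can be seen.
MIR224: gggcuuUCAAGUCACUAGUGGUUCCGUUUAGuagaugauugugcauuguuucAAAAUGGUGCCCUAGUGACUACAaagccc
MIR452: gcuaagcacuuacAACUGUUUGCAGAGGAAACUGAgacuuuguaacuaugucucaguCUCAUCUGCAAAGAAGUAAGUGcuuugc
MIR224 lies at chrX:151958578-151958658 and is 81 bases long, and MIR452 lies at chrX:151959628-151959712 and is 85 bases long (GRCh38). The mature arms lie at chrX:151958628-151958652 for miR-224-5p, chrX:151958584-151958606 for miR-224-3p, chrX:151959678-151959699 for miR-452-5p and chrX:151959634-151959655 for miR-452-3p. In GENCODE 29, GABRE spans chrX:151953124-151974680 on the minus strand. Both hairpins lie in intron 6, of 3978 bases, of the protein-coding transcript GABRE-201, which has 9 exons. In GABRE-203, annotated as a transcript of nonsense-mediated decay, they lie in different introns, MIR452 in intron 6 and MIR224 in intron 7. MIR452 is nearer to the start of the gene, and 969 bases separate the hairpins. Each hairpin also lies in an exon of 1 of the 12 annotated GABRE transcripts, a transcript with a retained intron. The build of the deposited counts is not given in the sources used here, and the positions are those of the reference. In the GABRE promoter, taken as 250 bases before to 50 after the start in RefSeq, the letters GGAATG, the core of the motif bound by TEAD proteins, had 0 matches on either strand (CATTCC on the other). Of 35116 promoter windows of that length, 14.0% held them. The miss says only that these letters are not in this window.

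The libraries held 13134601 to 15591345 reads. Reads assigned to a miRNA numbered 1920832 to 3739729 in the siRNA-treated libraries (13.4% to 26.5% of reads) and 6171851 in the untreated library (43.1%). Levels below are CPM (counts scaled to the library's miRNA reads) with TMM factors. This scale compares the arms with the other miRNAs of the same library and not with all small RNA. The limit that a count of 0 allows (3 counts) was 0.886 to 1.52 CPM in siRNA-treated libraries and 0.559 CPM in the untreated library. The 2 libraries of 36 h stood apart from each other. Over the 458 tested miRNAs the log2 difference of siRNA 2 from siRNA 1 had an SD of 0.57 at 24 h, 1.22 at 36 h and 0.50 at 48 h, so results are given with and without the 36 h pair. The hepatocyte marker list (miR-122-5p, miR-192-5p, miR-194-5p and miR-148a-3p) summed to 16102 to 27464 CPM in siRNA-treated libraries and 21011 CPM in the untreated one. All 4 markers were detected. Most of each sum was miR-148a-3p, at 13919 to 25518 CPM in siRNA-treated libraries and 18414 CPM in the untreated one. miR-122-5p, the defining hepatocyte miRNA, was low, at 3.75 to 47.6 CPM in siRNA-treated libraries and 45.5 CPM in the untreated library.

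miR-224-5p and miR-452-5p were the abundant arms, and they differed in their pattern. miR-452-5p was lower in all 6 siRNA-treated libraries than in untreated cells, while miR-224-5p lay on both sides of the untreated level. With all libraries in the fit, no difference of any of the 4 arms passed edgeR's test with TMM scaling or that of DESeq2. With all reads of a library as the scale, the median log2 fold change of all tested miRNAs was -1.13 over all times, and 94.98% of them lay below 0. On that scale both arms of miR-452 passed in edgeR over all times (-2.0 with adjusted p = 0.00577 for miR-452-5p, and -1.38 with adjusted p = 0.0489 for miR-452-3p). There edgeR called 120 of all 458 tested miRNAs over all times, and its calls at single times are given in the last section. Without the 36 h pair, edgeR called miR-452-5p lower over the remaining times (log2 fold change -0.84) and at 48 h (-1.11), but not at 24 h (-0.57). Over the remaining times it called 10.7% of 467 miRNAs (7.07% lower), and at 48 h it called 25.1% (15.4% lower). The sum of the 4 arms took 0.510% ± 0.101 (SD, n = 6) of all miRNA reads in siRNA-treated libraries and 0.525% in the untreated library.

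miR-452-5p is the arm of miR-452 with most of the reads. The siRNA 1 libraries of 24, 36 and 48 h held 1727, 1711 and 1298 CPM (5844, 3382 and 2972 reads). Those of siRNA 2 held 1680, 1104 and 1079 CPM (4018, 2677 and 2586 reads), against 2645 CPM (14190 reads) in untreated cells. The siRNA-treated libraries did not overlap the untreated one, whose 95% interval from counting error was 2602 to 2689 CPM. Their mean was 1433 ± 309 CPM (SD, n = 6). Of the 458 tested miRNAs, 13.5% were likewise below untreated in all 6 libraries and 10.3% were above it in all 6. Among the miRNAs of a library, miR-452-5p ranked 52nd to 60th by count in the siRNA-treated libraries and 45th in untreated cells.

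The level of miR-452-5p stood at 2645 CPM at 0 h, 1703 ± 33.0 CPM at 24 h, 1408 ± 429 CPM at 36 h and 1188 ± 155 CPM at 48 h (SD, n = 2 at each time after 0 h). Both 48 h libraries were lower than both 24 h libraries, as was true of 33% of tested miRNAs, with 28.2% higher in both. The neighbours 36 h and 24 h overlapped, and so did 48 h and 36 h, where the siRNA 1 library lay close to its 24 h value and the siRNA 2 library close to its 48 h value.

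In edgeR's quasi-likelihood test, with p-values adjusted by Benjamini-Hochberg over all tested miRNAs, the mean over the 3 times gave miR-452-5p a log2 fold change of -0.90 ± 0.29 (SE, siRNA-treated over untreated, adjusted p = 0.900, unadjusted p = 0.0173). The test called 0% of the 458 miRNAs, and 23 (5.02%) had an unadjusted p under 0.05. DESeq2 called 1 miRNA (0.218%), which was higher in siRNA-treated cells and so was not this one. By time the log2 fold change was -0.63 ± 0.34 at 24 h (edgeR adjusted p = 0.997), -0.91 ± 0.34 at 36 h (edgeR adjusted p = 0.946) and -1.15 ± 0.34 at 48 h (edgeR adjusted p = 0.367). Called miRNAs made up 0% at each time. The shares with an unadjusted p under 0.05 were 2.4% (11) at 24 h, 4.15% (19) at 36 h and 11.6% (53) at 48 h, while DESeq2 called 1 (0.218%), 7 (1.53%) and 12 (2.62%) miRNAs at these times.

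Leaving out both 36 h libraries left the size of the difference nearly as it was and narrowed its error. The pair left out was the one with the largest spread (SD 1.22 at 36 h, against 0.57 at 24 h and 0.50 at 48 h). It was left out with that spread known, and the spread then came from the pairs of 24 h and 48 h alone. Such a choice by itself makes a narrower error and more calls likely. The log2 fold change of miR-452-5p was then -0.84 ± 0.22 over the remaining times (edgeR adjusted p = 0.00378) and -1.11 ± 0.25 at 48 h (edgeR adjusted p = 0.000127). At 24 h it was -0.57 ± 0.25 and missed the threshold (edgeR adjusted p = 0.393), where 2.78% of miRNAs were called. Without that pair edgeR called 10.7% of 467 miRNAs over all times (50, of which 33, or 7.07%, were lower) and 25.1% at 48 h (117, of which 72, or 15.4%, were lower). Without the siRNA 1 library of 36 h alone, the value over all times was -0.99 (edgeR adjusted p = 0.00108), and 14.2% of 459 miRNAs were called. Without the siRNA 2 library of 36 h alone, it was -0.81 (edgeR adjusted p = 0.0114), and 6.71% of 462 miRNAs were called. At 36 h itself, leaving out either library sets 1 library against 1, with the spread taken from the pairs of 24 h and 48 h. The value was -1.23 without the siRNA 1 library (edgeR adjusted p = 0.00264, 19.8% of miRNAs called) and -0.63 without the siRNA 2 library (edgeR adjusted p = 0.384). Leaving out the siRNA 1 library of 36 h gave -1.13 at 48 h (edgeR adjusted p = 0.000872, 20.5% called). Leaving out the siRNA 2 library of 36 h gave -1.15 at 48 h (edgeR adjusted p = 0.000148, 24.5% called).

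**Figure D1:**
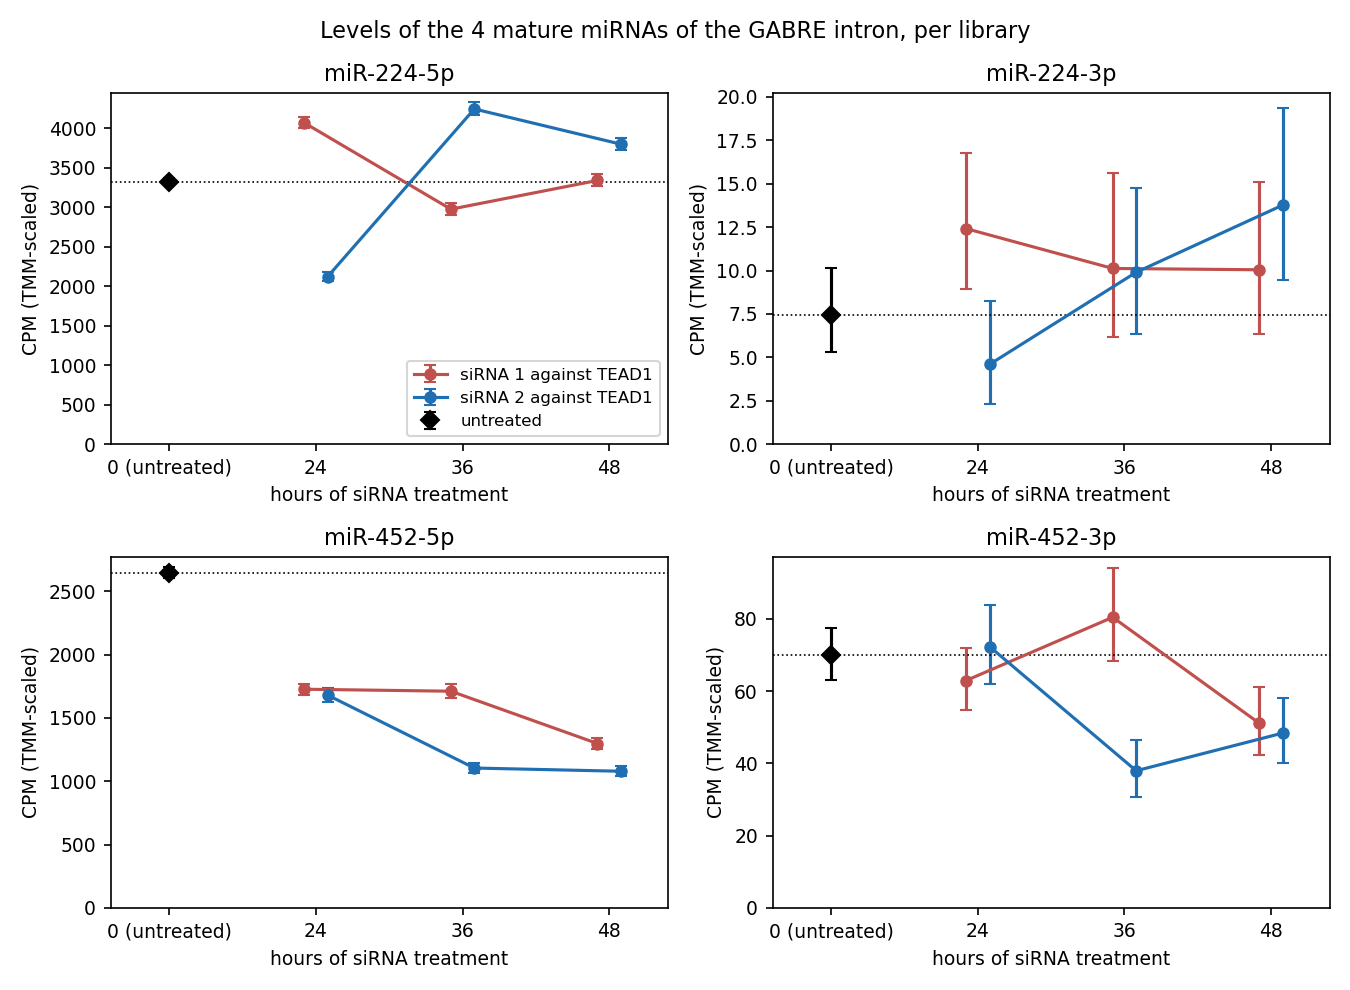
Level of each arm in CPM (TMM-scaled, linear axes from 0) against hours of siRNA treatment, with siRNA 1 in red, siRNA 2 in blue and the untreated library as a black diamond and dotted line. Points are single libraries and bars are exact 95% intervals for counting error only. All 6 siRNA-treated points of miR-452-5p lie between 1079 and 1727 CPM, under the 2645 CPM of the untreated library, whereas those of miR-224-5p lie between 2122 and 4242 CPM on both sides of 3322 CPM.

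miR-452-3p, the arm of miR-452 with fewer reads, was on both sides of the untreated level. The siRNA 1 libraries of 24, 36 and 48 h held 62.9, 80.4 and 51.1 CPM. Those of siRNA 2 held 72.3, 37.95 and 48.4 CPM, against 69.9 CPM in untreated cells. The 48 h pair lay under both the untreated library and the 24 h pair, and the lowest and the highest library were the 2 of 36 h. The siRNA-treated mean was 58.9 ± 15.9 CPM (SD, n = 6). These levels rest on 92 to 213 reads in siRNA-treated libraries and 375 reads in the untreated one. The edgeR log2 fold change was -0.26 ± 0.42 over all times (adjusted p = 0.900) and -0.49 ± 0.48 at 48 h (adjusted p = 0.643). At 24 h it was -0.05 ± 0.49 with TMM and 0.02 with the size factors of DESeq2, and at 36 h it was -0.24 ± 0.49 with TMM and 0.06 with total miRNA counts as the scale.

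miR-224-5p is the arm of miR-224 with nearly all of its reads and the member known from liver cancer. The siRNA 1 libraries of 24, 36 and 48 h held 4067, 2974 and 3338 CPM (13764, 5878 and 7644 reads). Those of siRNA 2 held 2122, 4242 and 3796 CPM (5074, 10283 and 9100 reads), against 3322 CPM (17825 reads) in untreated cells. Of the 6 siRNA-treated libraries, 4 were above untreated and 2 below. The lowest was siRNA 2 at 24 h and the highest siRNA 2 at 36 h.

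The siRNA-treated mean of miR-224-5p was 3423 ± 791 CPM (SD, n = 6). The 24 h pair averaged 3094 ± 1376 CPM, the 36 h pair 3608 ± 896 CPM and the 48 h pair 3567 ± 324 CPM (SD, n = 2 each), so no time differed from another beyond the spread of its pair. The edgeR log2 fold change over all times was 0.04 ± 0.39 (adjusted p = 0.992). The times gave -0.10 ± 0.44 (24 h), 0.12 ± 0.44 (36 h) and 0.10 ± 0.44 (48 h), with edgeR adjusted p-values of 0.997, 0.980 and 0.928. Without the 36 h pair it was 0.05 ± 0.23 over the remaining times (edgeR adjusted p = 0.940). A p that misses the threshold does not show that the level was the same.

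miR-224-3p was the rarest of the 4 arms, with 11 to 42 reads in siRNA-treated libraries and 40 reads in untreated cells. Levels with siRNA 1 at 24, 36 and 48 h were 12.4, 10.1 and 10.04 CPM. Levels with siRNA 2 were 4.60, 9.90 and 13.8 CPM, against 7.46 CPM in untreated cells. It was above untreated in 5 of 6 libraries, with a siRNA-treated mean of 10.1 ± 3.13 CPM (SD, n = 6). The single library below untreated was siRNA 2 at 24 h, which was also the lowest for miR-224-5p. The edgeR log2 fold change was 0.44 ± 0.61 over all times (adjusted p = 0.900) and 0.67 ± 0.69 at 48 h (adjusted p = 0.652). At this depth a difference of that size could not be separated from the error.

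**Figure D2:**
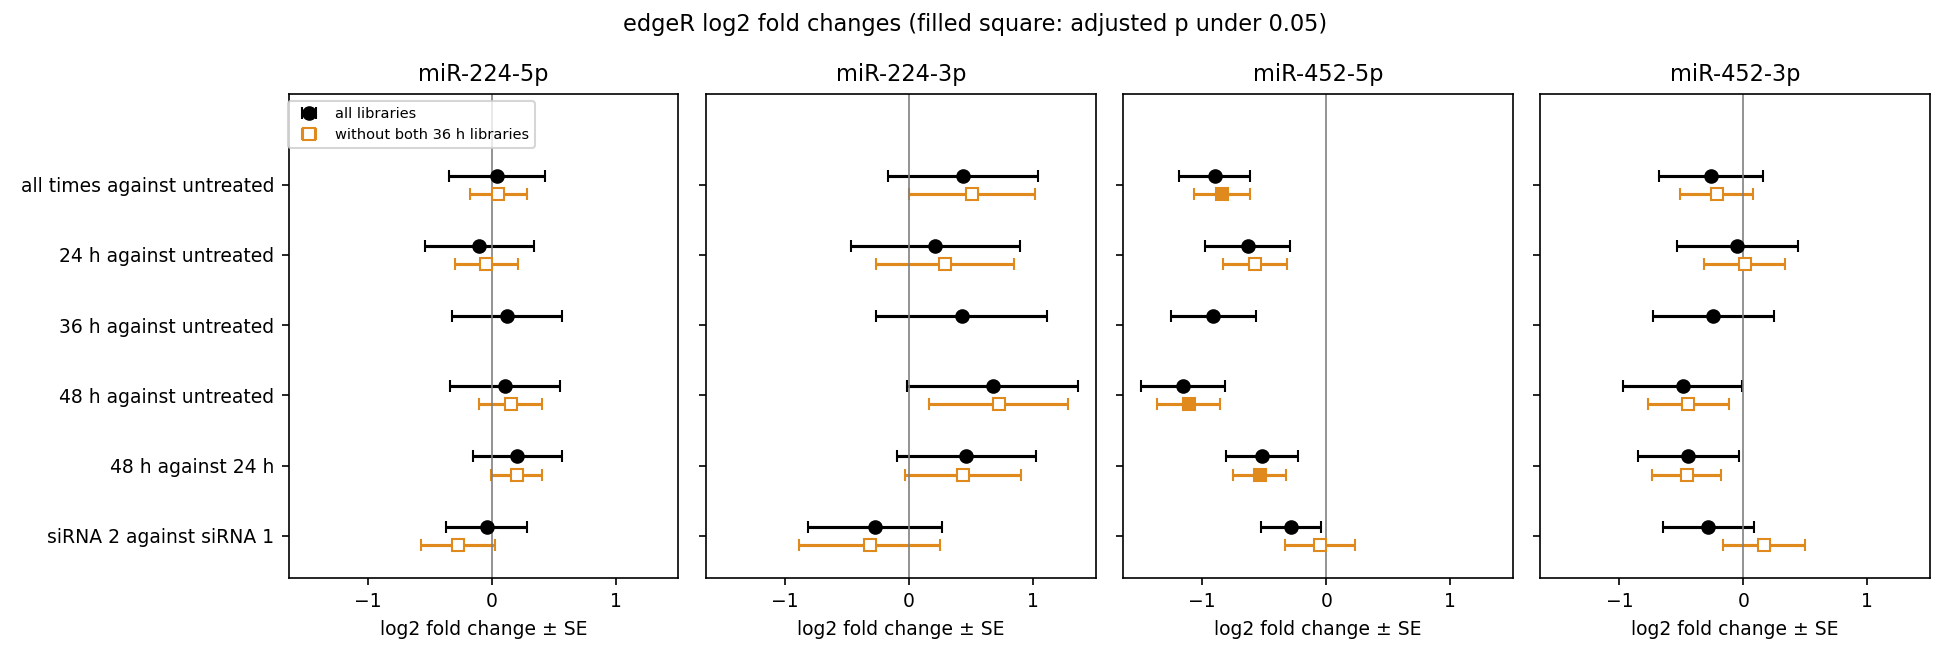
Log2 fold change of each arm ± SE from edgeR in 6 comparisons, with all libraries in the fit (black circles) and without both 36 h libraries (orange squares, filled where the adjusted p is under 0.05). Filled squares appear for miR-452-5p over all times (-0.84), at 48 h (-1.11) and for 48 h against 24 h (-0.54), and for no other arm, and the 36 h comparison has no orange square because its libraries are left out.

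Time within the siRNA treatment was compared directly as 48 h against 24 h, which does not use the untreated level. miR-452-5p had 1188 ± 155 CPM at 48 h and 1703 ± 33.0 CPM at 24 h (SD, n = 2 each), which is -0.52 ± 0.29 as a log2 fold change (edgeR adjusted p = 0.376). miR-452-3p had 49.7 ± 1.91 CPM at 48 h and 67.6 ± 6.65 CPM at 24 h, which is -0.44 ± 0.41 on that scale (edgeR adjusted p = 0.563). Both arms of miR-452 were lower in both 48 h libraries than in both 24 h libraries, as were 33% of tested miRNAs. The arms of miR-224 overlapped between the times, at 0.21 ± 0.36 for miR-224-5p and 0.46 ± 0.56 for miR-224-3p on the log2 scale (edgeR adjusted p = 0.782 and 0.668). edgeR called 0% of 458 miRNAs in this comparison, with 84 (18.3%) at an unadjusted p under 0.05, and DESeq2 called 20 (4.37%). Without the 36 h pair, miR-452-5p fell by 0.54 ± 0.21 on the log2 scale (edgeR adjusted p = 0.0432), a call that 28.7% of 467 miRNAs shared (134, of which 83, or 17.8%, were lower).

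The 2 siRNAs were compared at matched times over the 6 siRNA-treated libraries. None of the 4 arms passed the test of this difference. The log2 fold change of siRNA 2 over siRNA 1 was -0.04 ± 0.33 for miR-224-5p, -0.27 ± 0.54 for miR-224-3p, -0.28 ± 0.24 for miR-452-5p and -0.28 ± 0.37 for miR-452-3p (edgeR adjusted p = 0.992 each). The call share was 0% of 435 miRNAs, 6 (1.38%) had an unadjusted p under 0.05, and DESeq2 called 0. The sign for miR-224-5p differed by time, with siRNA 2 lower at 24 h (2122 CPM, against 4067 CPM with siRNA 1) and higher at 36 h (4242 CPM, against 2974 CPM with siRNA 1). For miR-452-5p the siRNAs lay closest at 24 h (1680 CPM with siRNA 2 and 1727 CPM with siRNA 1). They were farthest apart at 36 h (1104 CPM with siRNA 2 and 1711 CPM with siRNA 1). Without the 36 h pair, miR-452-5p stood at -0.05 ± 0.28 and miR-452-3p lay on the other side of 0, at 0.17 ± 0.33.

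Shares of reads within the pair do not depend on how a library is scaled. Among reads of both 5p arms, miR-452-5p took 29.8%, 36.5% and 28.0% with siRNA 1 at 24, 36 and 48 h and 44.2%, 20.7% and 22.1% with siRNA 2, against 44.3% in untreated cells. The mean was 30.2% ± 8.91 (SD, n = 6). All 6 were below untreated, but the 24 h library of siRNA 2 was not separated from it (exact Clopper-Pearson 95% interval 43.2% to 45.2%, against 43.8% to 44.9% in untreated cells). With both arms of each miRNA counted, that library lay above the untreated one, at 45.2% against 44.9%, and 5 of 6 lay below. The ratio of miR-452-5p to miR-224-5p reads ranged over 0.260 to 0.792 in siRNA-treated libraries, against 0.796 in untreated cells.

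The split of each hairpin between its arms was read in the same way. The 3p arm took 3.52%, 4.49% and 3.79% of miR-452 reads with siRNA 1 at 24, 36 and 48 h and 4.13%, 3.32% and 4.29% with siRNA 2, against 2.57% in untreated cells. All 6 shares lay above untreated, with a mean of 3.92% ± 0.457 (SD, n = 6). The interval of 1 of them, siRNA 2 at 36 h (2.69% to 4.06%), overlapped that of untreated cells (2.32% to 2.84%). Among 110 hairpins with both arms tested, 10.9% (12) had a rarer arm whose share was likewise above untreated in all 6 libraries, and 7.27% (8) had one below in all 6. By the log2 ratio of the shares, 0.61 for miR-452, it ranked 16th of these 110.

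The 3p arm of miR-224 took 0.304%, 0.339% and 0.30% of its reads with siRNA 1 and 0.216%, 0.233% and 0.361% with siRNA 2, against 0.224% in untreated cells (0.160% to 0.305%). Of these, 5 of 6 lay above untreated and 1 below. With 1 library against 6, an exact permutation test of such shares cannot go below a one-sided p of 0.143, so they are given without a test.

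**Figure D3:**
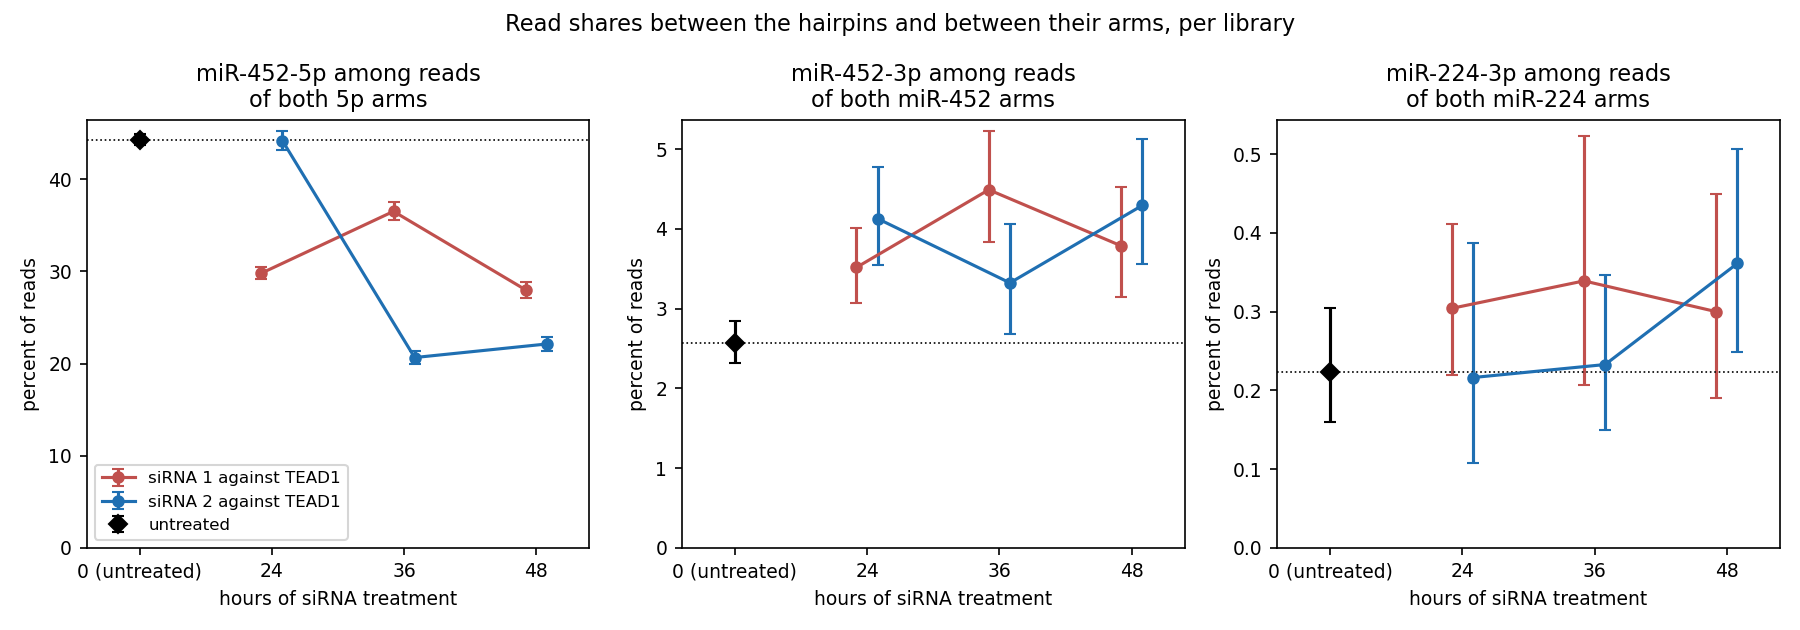
Percent of reads against hours of siRNA treatment, for miR-452-5p among both 5p arms, miR-452-3p among both miR-452 arms and miR-224-3p among both miR-224 arms, with siRNA 1 in red, siRNA 2 in blue and the untreated library in black. Points are single libraries and bars are exact Clopper-Pearson 95% intervals for counting error only. The miR-452-5p share lies between 20.7% and 44.2% in siRNA-treated libraries and at 44.3% in untreated cells, and the miR-452-3p share lies between 3.32% and 4.49% in siRNA-treated libraries and at 2.57% in untreated cells.

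The miRNAs whose log2 CPM followed each arm most closely over the 7 libraries were taken from the 273 others whose mean count reached 50. These correlations are descriptions over 7 libraries that share depth and composition. miR-185-5p followed miR-452-5p at Pearson r = 0.995, and miR-362-5p (0.937) and miR-181d-5p (0.911) came next. The level of miR-185-5p was 576, 547 and 423 CPM with siRNA 1 at 24, 36 and 48 h. With siRNA 2 it was 552, 364 and 370.03 CPM, against 779 CPM in untreated cells. Its log2 fold change over all times was -0.74 ± 0.29 (edgeR adjusted p = 0.900). Like miR-452-5p it was below untreated in every siRNA-treated library, as were 13.5% of tested miRNAs. It was picked by its correlation over these same libraries, so the shared side is no separate result. miR-181d-5p was 12th when total counts set the scale.

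For miR-452-3p the closest were miR-378a-3p (Pearson r = 0.974), miR-301a-3p (0.962) and miR-3613-5p (0.959), of which miR-301a-3p and miR-3613-5p were 19th and 14th on the total-count scale. For miR-224-5p they were miR-16-2-3p (0.944), miR-505-3p (0.924) and miR-25-3p (0.884). For miR-224-3p they were miR-92b-3p (0.914), let-7e-3p (0.889) and miR-378a-5p (0.887). Between arms of the same hairpin, r was 0.838 for miR-224 (Spearman's rho 0.464) and 0.781 for miR-452 (rho 0.679), and on the total-count scale r was 0.911 and 0.518 for these hairpins. The r of miR-224-5p with miR-452-5p was -0.35.

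The intron sits near a second GABA-A receptor gene with intronic miRNAs, GABRA3, whose miR-105 and miR-767 hairpins are 433 to 435 kb away. Their 4 mature arms were detected and tested. miR-105-5p averaged 554 ± 214 CPM (SD, n = 6) in siRNA-treated libraries and 410 CPM in untreated cells, and miR-767-5p averaged 165 ± 24.3 CPM (SD, n = 6) in siRNA-treated libraries and 140.2 CPM in untreated cells. The log2 fold changes over all times were 0.39 ± 0.44 for miR-105-5p, -0.36 ± 0.33 for miR-105-3p, 0.23 ± 0.32 for miR-767-5p and 0.38 ± 0.56 for miR-767-3p (edgeR adjusted p = 0.900 each). miR-4330, farther off at 791 kb, had 0 reads.

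Of 161 other miRNAs of the files whose hairpin genes lie on the X chromosome alone, 48 were tested. edgeR called none over all times, 32 had a log2 fold change below 0 and 16 above, and the median was -0.35, against -0.05 over all tested miRNAs, of which 53.7% were below 0. On the total-count scale 26 lay below 0 and 22 above, while 37.6% of all tested miRNAs lay below 0. On the all-reads scale all 48 lay below 0, as did 94.98% of all tested miRNAs. Of the 48, edgeR called 24 lower on the all-reads scale, where it called 120 of all 458 tested miRNAs. The values of largest size were those of miR-542-3p (-1.55 ± 0.83), miR-652-5p (-1.34 ± 0.88), miR-18b-5p (-1.28 ± 0.91) and miR-374a-3p (-1.17 ± 0.95). In the fit without the 36 h pair, edgeR called 5 of the 48, all lower, beside 10.7% of all tested miRNAs called and 7.07% called lower. For 48 h against 24 h the median was -0.50, against 0.03 over all miRNAs. With the 36 h pair left out, 17 were then lower and 2 higher at an adjusted p under 0.05 in edgeR, beside 28.7% of all tested miRNAs called and 17.8% called lower. The median at 24 h against untreated was -0.02 and turned to 0.04 with the size factors of DESeq2, and at 36 h it was -0.33 with TMM and -0.0029 on the total-count scale.

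A list of 16 other miRNAs raised in liver cancer, such as miR-221-3p, which targets CDKN1B, had 14 tested members. It shares miR-221-3p, miR-222-3p and miR-500a-3p with the X chromosome list. edgeR called none over all times, 9 lay below 0 and 5 above, and the median was -0.24. Over all tested miRNAs the median was -0.05, with 53.7% below 0. On the total-count scale 7 lay on each side of 0, while 37.6% of all tested miRNAs lay below 0. On the all-reads scale all 14 lay below 0, as did 94.98% of all tested miRNAs. Of the 14, edgeR called 7 lower on the all-reads scale, where it called 120 of all 458 tested miRNAs. miR-301a-3p (-1.19 ± 1.08), miR-18a-5p (-1.0 ± 0.67), miR-106b-5p (-0.95 ± 0.81) and miR-96-5p (-0.68 ± 0.35) had the values of largest size. Without the 36 h pair, 3 of the 14 passed the edgeR test, beside 10.7% of all tested miRNAs. These were miR-301a-3p (-1.30 ± 0.36), miR-106b-5p (-1.09 ± 0.25) and miR-18a-5p (-1.05 ± 0.32), all lower.

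For 48 h against 24 h the median of the liver cancer list was -0.52, and without the 36 h pair 7 were lower and 1 higher at an adjusted p under 0.05 in edgeR, beside 28.7% of all tested miRNAs called and 17.8% called lower. At 24 h against untreated its median was -0.02 and turned to 0.04 with the size factors of DESeq2, and at 36 h it was -0.26 and turned to 0.07 on the total-count scale.

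**Figure D4:**
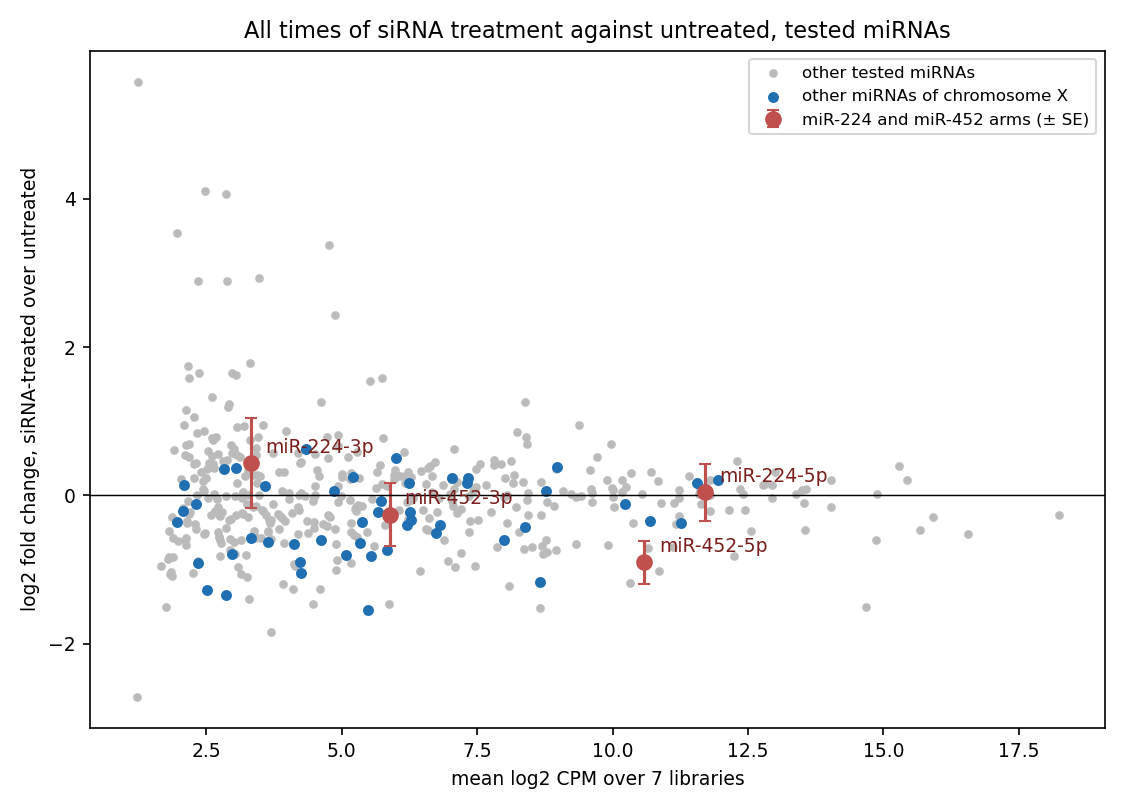
Log2 fold change of siRNA-treated over untreated cells, over all times, against the mean log2 CPM of the 7 libraries for the 458 tested miRNAs (grey), with the other miRNAs of chromosome X in blue and the 4 arms of miR-224 and miR-452 in red with bars of ± SE. miR-452-5p lies at -0.90 and miR-224-5p at 0.04 among the abundant miRNAs, and no point passed the adjusted threshold.

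Markers of other cell types were read beside these results. The muscle list summed to 21.0 to 876 CPM in siRNA-treated libraries and 23.1 CPM in the untreated one, and its highest value, almost all of it miR-1-3p (867 CPM), was in the siRNA 1 library of 36 h, 1 of the 2 libraries on which the call of miR-452-5p turned. The blood list (miR-451a, miR-486-5p, miR-144-3p and miR-223-3p) summed to 13.3 to 76.3 CPM in siRNA-treated libraries and 11.9 CPM in the untreated one, with miR-223-3p at 0 in every library. The fibroblast and endothelium list summed to 438 to 1061 CPM in siRNA-treated libraries and 456 CPM in the untreated one, with all 4 of its markers detected. The neuron list summed to 29.3 to 44.6 CPM in siRNA-treated libraries and 25.2 CPM in the untreated one, with miR-124-3p at 0. The highest blood, fibroblast and neuron sums were in the siRNA 2 library of 36 h. The part of these markers, and of the share of reads assigned to miRNAs, in the level of miR-452-5p was not tested. In bulk libraries, fewer cells with a miRNA and less of it per cell cannot be told apart.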

How the data were processed

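Per the labels' protocols, total RNA was extracted with a column kit and made into small RNA libraries with an NEB kit. Each deposited file gives unnormalized counts of reads for 2652 mature miRNAs, and 5 summary lines. How reads were aligned and counted, and on which build, is not given in the sources used here. The summary lines were not tested, and they entered the library sizes only where all reads set the scale. Unassigned reads were 73.5% to 86.6% of siRNA-treated libraries and 56.9% of the untreated one.

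The 458 miRNAs whose mean count reached 10 were tested with edgeR 4.0.16 (R 4.3.3, quasi-likelihood F-test, TMM). Untreated cells and the 3 times formed the groups of 1 model, which takes the variation of the single untreated library to be that of the pairs. siRNA 2 was compared with siRNA 1 in the 6 siRNA-treated libraries (435 miRNAs) with time as a factor. Benjamini-Hochberg adjusted p-values under 0.05 counted as calls, and the SE is the log2 fold change over the root of F. Log2 CPM used a prior count of 2. The floor of CPM values is 3 counts, and all intervals are exact (Clopper-Pearson, 95%) and cover counting error only. Seeds were matched in the mature sequences deposited with the counts and places in GENCODE 29. Chromosomes came from RefSeq hairpin genes (455 of 458 tested miRNAs had one). The 4 arms and all lists were chosen with earlier results of these data known. The miRNAs named were the 4 arms, the 3 closest to each by Pearson r, those sharing a seed, the X neighbours, and the 4 list members with the values of largest size. miR-221-3p is named as an example of its list. Alternatives were DESeq2 1.42.0, its size factors, total miRNA counts or all reads as the scale, no filter, a mean count of 50, the siRNA number as a block, and libraries left out. The scripts were tested on simulated counts.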

Additional observations from a re-analysis of the deposited data

How the results depend on the processing

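miR-452-5p was below untreated at each time and over all times under every alternative run, and its call depended on the 36 h libraries and on the scale. With all reads as the scale, the median log2 fold change over tested miRNAs was -1.13 over all times, -0.97 at 24 h, -1.25 at 36 h, -1.14 at 48 h and -0.15 for 48 h against 24 h, against -0.05, -0.04, -0.03, -0.02 and 0.03 with TMM. On that scale miR-452-5p passed the threshold over all times (-2.0, edgeR adjusted p = 0.00577), at 36 h (-2.17, edgeR adjusted p = 0.0452) and at 48 h (-2.28, edgeR adjusted p = 0.00752), and miR-452-3p passed over all times (-1.38, edgeR adjusted p = 0.0489). miR-224-5p turned to -1.002 over all times, -1.06 at 36 h, -1.01 at 48 h and -0.074 for 48 h against 24 h, and miR-224-3p to -0.61 over all times, -0.61 at 24 h, -0.79 at 36 h and -0.43 at 48 h. With no filter miR-224-5p turned to -0.046 over all times and -0.0013 at 36 h. miR-452-3p turned to 0.017 at 24 h with DESeq2 and with its size factors, to 0.012 at 24 h without the 36 h pair, to 0.065 at 36 h on the total-count scale, and to 0.17 for siRNA 2 against siRNA 1 without the 36 h pair. Without that pair miR-452-5p was -0.84 over all times, -1.11 at 48 h and -0.54 for 48 h against 24 h, all past the threshold.

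Calls over all miRNAs numbered 0 in each comparison. Over all times they were 1 with DESeq2, 120 of 458 on the all-reads scale, 12 with no filter and 50 without the 36 h pair. The same settings gave 1, 2, 2 and 13 at 24 h, 12, 118, 39 and 117 at 48 h, and 20, 29, 51 and 134 for 48 h against 24 h. At 36 h, DESeq2 gave 7, the all-reads scale 49 and no filter 10. Leaving out 1 library gave 0 to 65 calls over all times, 0 to 14 at 24 h, 0 to 91 at 36 h, 0 to 113 at 48 h and 0 to 131 for 48 h against 24 h. For the arms, leaving out 1 library gave miR-452-5p -0.99 to -0.81 over all times, -1.23 to -0.63 at 36 h and -1.30 to -1.03 at 48 h. It gave miR-224-5p -0.14 to 0.20 over all times, -0.65 to 0.28 at 24 h, -0.16 to 0.39 at 36 h, -0.13 to 0.75 for 48 h against 24 h and -0.33 to 0.40 for siRNA 2 against siRNA 1. miR-224-3p took values of 0.13 to 0.63 over all times, -0.69 to 0.72 at 24 h, -0.0011 to 1.36 for 48 h against 24 h and -0.70 to 0.27 between the siRNAs, and miR-452-3p values of -0.45 to -0.11 over all times, -0.16 to 0.050 at 24 h, -0.85 to 0.20 at 36 h and -0.55 to 0.14 between the siRNAs. The cause of these changes was not tested. Apart from the all-reads scale, 272 values of the arms under alternatives kept direction and side of the threshold, 22 turned and 8 newly passed.

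Libraries given the same siRNA did not deviate together (correlations over miRNAs of 0.10 for 24 h with 36 h, -0.25 for 24 h with 48 h and -0.16 for 36 h with 48 h). With the siRNA number as a block, calls stayed at 0 in all 5 comparisons it could be fitted to, and miR-452-5p was -0.91 over all times. The share of miR-452-5p among the 5p arms moved beyond its interval, against that of both arms, in the untreated library (44.3%), siRNA 1 at 24 h (29.8%) and siRNA 1 at 36 h (36.5%). Depth limits miR-224-3p most, with as few as 11 reads in a library.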
